A study of Mus musculus with 9 samples.

Results

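The lysyl oxidase family comprises Lox, Loxl1, Loxl2, Loxl3 and Loxl4, copper-dependent enzymes that are secreted into the extracellular matrix. Members were all probe sets whose gene symbol in the platform's probe table is exactly 1 of these 5 names. The rule found 8 of the 45101 probe sets on the array, with 3 for Lox, 2 for Loxl1, 1 for Loxl3 and 2 for Loxl4. It found 0 for Loxl2, since both probe sets that list Loxl2 also list Gm21451, a gene model on the same chromosome.

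Right ventricular myocardium was taken from male C57BL6J mice aged 6 to 8 weeks, after pulmonary banding (5 arrays) or after a sham operation (4 arrays). Banding narrows the pulmonary artery, so the right ventricle pumps against a raised pressure, and sham mice serve as the operated control. The study's design text gives wild-type mice in both groups, and no gene was modified. It counts 5 mice, without saying whether per group, while 4 sham arrays were analysed here. The labels number the replicates but do not say that each is a separate animal, so p-values measure the spread between these arrays, which may be technical.

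Lysyl oxidases oxidise lysine and hydroxylysine residues of collagen and elastin to reactive aldehydes, which then condense into covalent cross-links between neighbouring molecules. Lox and Loxl1 form a subgroup made as proenzymes that lose a propeptide outside the cell, whereas Loxl2, Loxl3 and Loxl4 carry scavenger receptor domains in place of that propeptide. In the heart, fibroblasts are a main source of these enzymes, and cross-linking sets how stiff and how resistant to degradation the fibrillar matrix is.

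Values are log2 expression per probe set, so a difference of 1 is a 2-fold difference. Array medians lay between 3.23 and 3.31, between 30.2% and 32.8% of probe sets lay at the table's floor of 2.198, and with 9 arrays the precision is limited. A group mean below 4.198, which is 2 log2 units above the floor, is called dim here, and no fold is given where both groups were dim. The 10 cardiomyocyte markers averaged 15.0 to 15.2 on banding arrays and 15.3 to 15.4 on sham arrays. The 8 liver markers averaged 2.78 to 5.26 on banding arrays and 9.61 to 13.6 on sham arrays, so liver transcripts separate the groups in the direction opposite to that of the lysyl oxidases. The 3 atrial markers that were not dim in both groups varied within both groups and did not pass the test.

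Banding against sham asks which transcripts differ in the pressure-overloaded right ventricle. Of the 4 measured family genes, 3 were higher in banding, and Loxl4 was dim in both groups. Lox rose 69.2-fold, Loxl3 13.4-fold and Loxl1 5.14-fold. By comparison, 18.4% of all 18193 genes were higher in banding at the same threshold, an adjusted p of 0.05, and 29.8% of the 11013 genes that were not dim in both groups. A rise of at least 2 log2 units, which these 3 genes had, was called in 2.30% of all genes. In tissue RNA, more transcript per cell and more cells of an expressing type cannot be told apart.

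Lox, the founding member and a cross-linker of both collagen and elastin, is represented by its brightest probe set, 1416121_at. Its log2 values were 12.33, 13.27, 12.57, 13.4 and 13.34 on banding replicates 1 to 5, against 7.18, 6.8, 6.77 and 6.72 on sham replicates 1 to 4. The lowest banding array lay 5.15 log2 units above the highest sham array. The banding mean was 12.98 ± 0.50 (SD, n = 5) and the sham mean 6.87 ± 0.21 (SD, n = 4), a difference of 6.11 ± 0.26 log2 units (SE, limma adjusted p = 1.13e-05). Among 18193 genes ordered by their difference, Lox stood at place 11.

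The second Lox probe set, 1448228_at, gave 10.99, 12.18, 11.02, 12.37 and 12.41 on banding replicates 1 to 5, against 4.93, 5.62, 4.85 and 5.17 on sham replicates 1 to 4. The groups were again far apart, with a difference of 6.65 ± 0.39 (SE, limma adjusted p over all 45037 probe sets = 5.04e-05). On both of these probe sets, banding replicates 1 and 3 were the lowest of the banded ventricles. The third Lox probe set, 1437903_at, was dim on every array, with 2.21 to 3.09 in banding and 2.2 to 2.21 in sham. It did not pass the test (adjusted p = 0.511). Because of it, the rise of Lox is 4.33 log2 units when a gene's probe sets are averaged.

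Loxl3, a scavenger receptor domain member that oxidises collagens and is also known to bind Snai1 in cell culture, has the single probe set 1418269_at. Its log2 values were 8.4, 9.39, 8.53, 9.44 and 9.41 on banding replicates 1 to 5, against 5.29, 5.24, 5.57 and 5.05 on sham replicates 1 to 4. All banding arrays lay above all sham arrays, by at least 2.83 log2 units. The difference was 3.75 ± 0.27 (SE, limma adjusted p = 6.66e-05). The banding mean was 9.03 ± 0.52 (SD, n = 5), against a sham mean of 5.29 ± 0.21 (SD, n = 4).

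Loxl1, which is tethered to elastic fibres by fibulin-5 and is needed for their renewal in mice, was already bright in sham ventricles on probe set 1451978_at. The log2 values were 12.36, 12.67, 12.28, 12.23 and 12.24 on banding replicates 1 to 5, against 10.1, 9.87, 10.24 and 9.76 on sham replicates 1 to 4. Groups did not overlap, and the spread within banding was narrower than for Lox and Loxl3. The SD was 0.18 over the banding arrays (n = 5, mean 12.36) and 0.22 over the sham arrays (n = 4), and the difference of means was 2.36 ± 0.13 (SE, limma adjusted p = 2.53e-05). The dimmer Loxl1 probe set 1436063_at ran from 7.73 to 8.46 in banding and from 4.9 to 5.53 in sham, a difference of 2.80 ± 0.17.

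Loxl4, the remaining scavenger receptor domain member, showed no level above the dim limit. On 1421153_at it read 2.98 on 4 of the banding arrays and 3.67 on banding replicate 5, against 2.91 to 2.98 in sham. Its second probe set, 1450134_at, read 2.34 to 2.5 in banding and 2.34 throughout sham. Neither passed (adjusted p = 0.578 and 0.42 over all probe sets). At these intensities a change in Loxl4 could be missed.

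Of the 8 family probe sets, 5 were higher in banding, beside 12.8% of all probe sets tested, and 0 were lower, beside 13.2%. In either direction 25.9% of all probe sets passed. All 5 had banding arrays that did not overlap with sham arrays, which held in that direction for 12.8% of all probe sets and 17.4% of all genes. With the mean of the liver markers as a covariate, whose ranges in banding and sham do not overlap, 998 of the 18193 genes passed, Lox among them (adjusted p = 0.0257). Loxl1 (1.68, adjusted p = 0.0545) and Loxl3 (3.75, adjusted p = 0.0759) did not. Without banding replicate 5 and sham replicate 4, the arrays of each group with the most liver transcripts, all 3 genes were still higher, by 5.97 for Lox, 3.57 for Loxl3 and 2.31 for Loxl1.

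**Figure D1:**
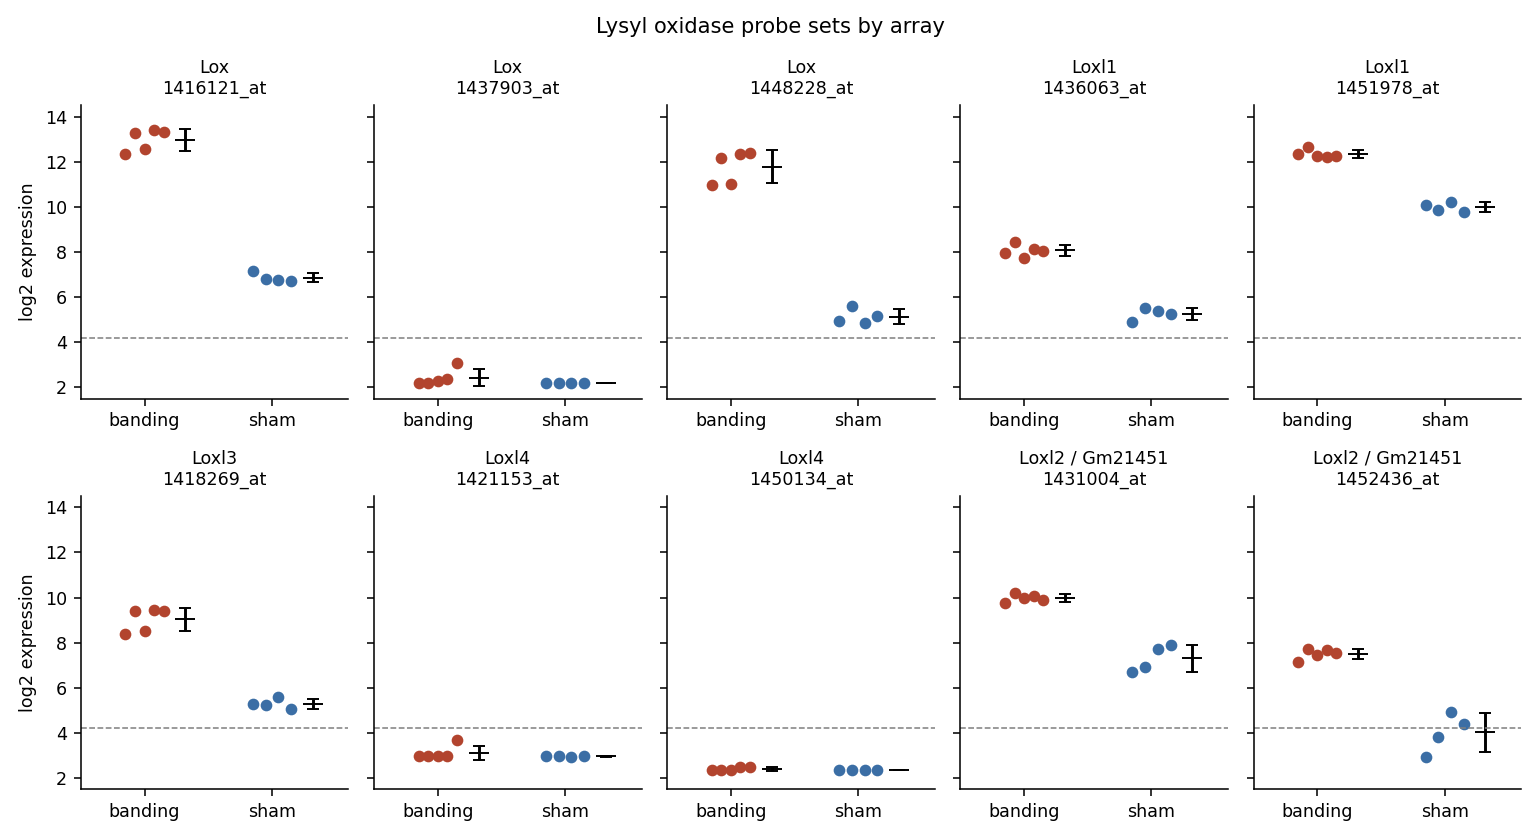
Log2 expression of each lysyl oxidase probe set and of the 2 probe sets shared by Loxl2 and Gm21451, with 1 point per array (5 banding, left; 4 sham, right), mean and SD beside the points, and a dashed line at the dim level of 4.198. Lox 1416121_at lies between 12.33 and 13.4 in banding and between 6.72 and 7.18 in sham, while Loxl4 stays under the dashed line in both groups.

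Both probe sets that list Loxl2 together with Gm21451 were higher in banding, but neither can be assigned to Loxl2 alone. Loxl2 is the member best known for work on cardiac fibrosis and for cross-linking basement membrane collagen. The brighter, 1431004_at, read 9.74, 10.2, 9.98, 10.05 and 9.89 on banding replicates 1 to 5, against 6.69, 6.93, 7.73 and 7.89 on sham replicates 1 to 4. Its difference was 2.66 ± 0.27 (SE, limma adjusted p = 0.000351). The other, 1452436_at, ran from 7.13 to 7.71 in banding and from 2.94 to 4.93 in sham, where the mean was dim, so its rise is at least 9.84-fold (adjusted p = 0.00052). Sham replicates 3 and 4 were the higher sham arrays on both, and the sham spread (SD 0.59 and 0.85, n = 4) exceeded the banding spread (SD 0.17 and 0.23, n = 5).

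The family genes differed from each other in how much they changed. On each array the log2 value of 1 member was taken from that of another, which compares changes and not levels, since probe sets differ in brightness. All 6 pairs of the 4 genes gave an exact two-sided permutation p of 0.0159, the smallest that 5 against 4 arrays allows with this test, and 0.0159 after adjustment over the 6 pairs. Lox rose by 2.36 log2 units more than Loxl3 and by 3.75 more than Loxl1, and Loxl3 rose by 1.39 more than Loxl1. With probe sets averaged, these differences were 0.58 between Lox and Loxl3, 1.75 between Lox and Loxl1, and 1.17 between Loxl3 and Loxl1. Averaging brings 1437903_at, dim in both groups, into the value of Lox. The 3 pairs with Loxl4 mainly carry the change of the other gene, because Loxl4 was dim.

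Within the banded ventricles, Lox and Loxl3 moved in parallel. Lox minus Loxl3 averaged 3.95 ± 0.06 over the banding arrays (SD, n = 5), although each gene alone varied with an SD of 0.50 or more there. Over the sham arrays it averaged 1.58 ± 0.29 (SD, n = 4). Relative to the group mean, Lox stood at -0.65, 0.29, -0.41, 0.42 and 0.36 on banding replicates 1 to 5, and Loxl3 at -0.63, 0.36, -0.5, 0.4 and 0.38. Replicates 1 and 3 were thus low for both genes and the other 3 high. The search for genes with so constant a log2 distance to Lox covered the 5 banding arrays and used the brightest Lox probe set only. Of 11012 other genes not dim in both groups, it found 1, Loxl3 itself. The other bright Lox probe set, 1448228_at, had an SD of 0.72 over the banding arrays (n = 5), against 0.52 for Loxl3. Its distance to Loxl3 was therefore less constant, and the match is not read as a property of the genes. Loxl1, on 1451978_at, stood at 0.01, 0.32, -0.08, -0.12 and -0.12 on the same arrays and did not share this order. On its dimmer probe set 1436063_at, banding replicates 3 and 1 read lowest, at 7.73 and 7.97, against 8.06 to 8.46 on the others.

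Over the deviations of all 9 arrays from their group means, Lox and Loxl3 had a Pearson r of 0.89, Lox and Loxl1 0.14, and Loxl1 and Loxl3 0.313. Within the 5 banding arrays r was 0.995 for Lox and Loxl3 and 0.138 for Loxl1 and Loxl3. Within the 4 sham arrays r was 0.089 for Lox and Loxl3 and 0.927 for Loxl1 and Loxl3. The Lox probe sets 1416121_at and 1448228_at had an r of 0.809 over the deviations, 0.986 within banding and -0.34 within sham. For the Loxl1 probe sets 1451978_at and 1436063_at, r was 0.268, 0.734 and -0.254. The values for Loxl1 above are those of 1451978_at, and its other probe set did not follow it within sham. These are descriptions over 9 arrays, in which values share the array and its normalisation, and 240 of the 11012 genes had an r above 0.8 with Lox. The mean of the 10 cardiomyocyte markers went the other way, at 15.22 and 15.15 on banding replicates 1 and 3 and 15.01 to 15.06 on the other banding arrays, with an r of -0.96 to Lox and -0.87 to Loxl3. Among the cardiomyocyte markers, Myh6, Myl2, Myl3, Tnni3, Pln and Mb read highest on banding replicates 1 and 3. Actn2, Actc1, Tnnt2 and Ryr2 did not, so the mean does not describe every marker. The 8 fibroblast markers had an r of -0.35 to Lox and the 5 activated fibroblast markers 0.70. The part of tissue composition in the spread of Lox and Loxl3 among banded ventricles was not tested.

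**Figure D2:**
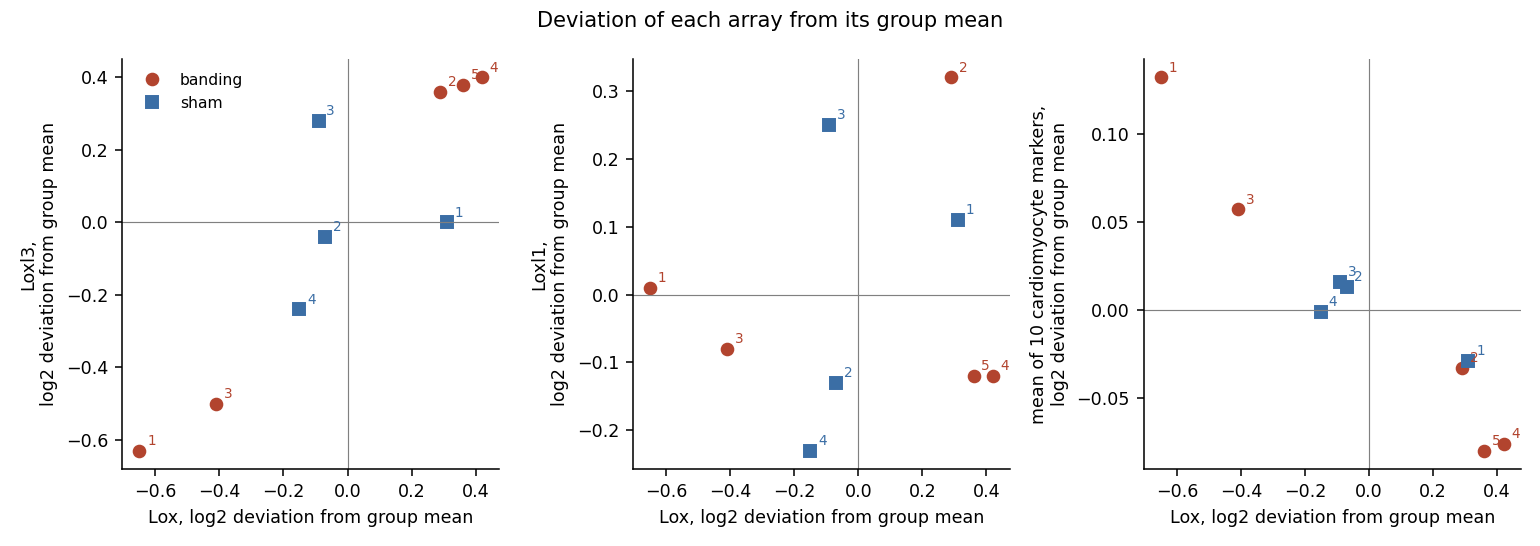
Deviation of each array from its group mean on the log2 scale, with Lox on the x axis and Loxl3 (left), Loxl1 (middle) or the mean of 10 cardiomyocyte markers (right) on the y axis; circles are banding, squares sham, and numbers are replicates. Banding replicates 1 and 3 are low for Lox and Loxl3 and high for the mean of the cardiomyocyte markers, though not for every marker.

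Fibroblast markers were also higher in banding, with 7 of 8 past the threshold, beside 18.4% of all genes. Their median difference was 1.41 log2 units. Among them Tcf21, a transcription factor of cardiac fibroblasts, rose 2.55-fold and Pdgfra, their growth factor receptor, rose 1.45-fold with overlapping groups. The largest log2 rises were those of Col15a1 (2.34), Vim (2.16) and Thy1 (1.93), and Ddr2 did not pass (0.23, limma adjusted p = 0.328). The list's mean ran from 10.92 to 11.25 on banding arrays and from 9.7 to 9.91 on sham arrays. Set against that mean on the same array, Lox stood at 1.86 ± 0.55 over the banding arrays (SD, n = 5), against -2.93 ± 0.29 over the sham arrays (SD, n = 4), which differ by 4.79. The difference was 2.42 for Loxl3 and 1.04 for Loxl1. Each gave an exact two-sided permutation p of 0.0159, and 0.0159 adjusted over the 4 members. For the dim Loxl4 this measure fell by 1.17, which carries the rise of the markers.

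Activated fibroblast markers were a second standard. Acta2, Postn, Cthrc1, Fap and Tnc, a list that earlier results on these arrays already showed to be higher, all passed, with a median difference of 4.65. Cthrc1 (3.97) and Tnc (3.0) were dim in sham, so the rise of the mean of all 5 is not known exactly. Measured against that mean, the difference between banding and sham was 1.33 for Lox, -1.03 for Loxl3 and -2.42 for Loxl1. Against Acta2, Postn and Fap alone, a choice made after seeing the data, it was 3.55 for Lox and 1.19 for Loxl3 (exact permutation p = 0.0212 each, adjusted over the 4 members) and -0.2 for Loxl1 (exact permutation p = 0.0952). The sign for Loxl3 thus turns with the choice of markers, and no direction is read for it. Of the markers kept, Acta2 rose by only 0.33 log2 units, with overlapping groups, against 4.65 for Postn and 2.7 for Fap. Both probe sets and markers enter as levels with their own brightness, so only the differences between groups carry meaning.

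**Figure D3:**
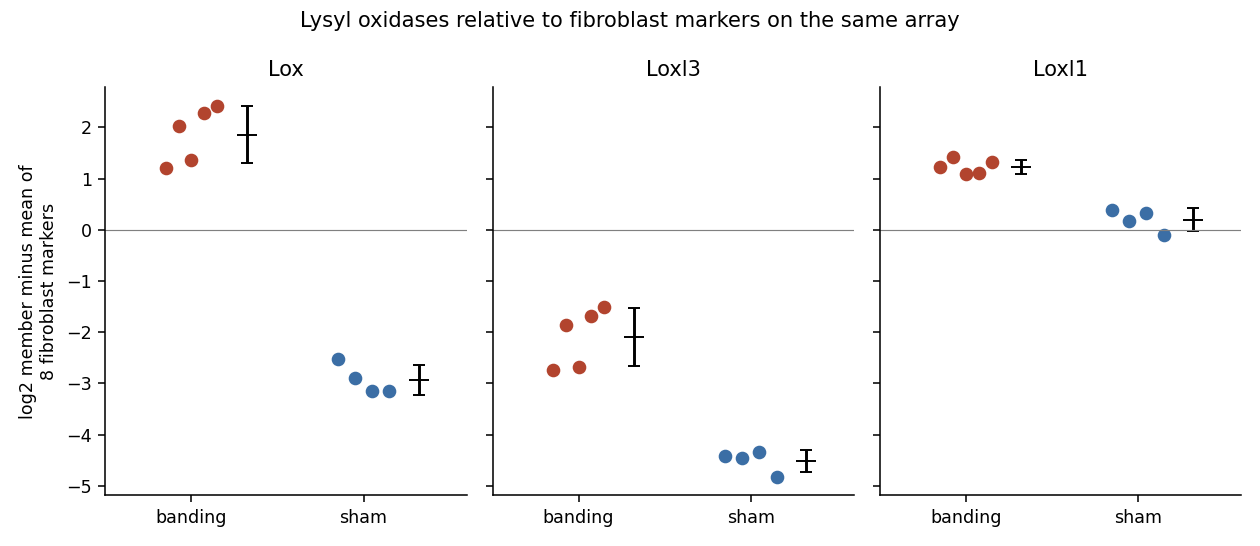
Log2 value of Lox, Loxl3 and Loxl1 minus the mean of 8 fibroblast markers on the same array (5 banding, left; 4 sham, right), with mean and SD beside the points. Every banding array lies above every sham array for all 3 genes, with mean differences of 4.79, 2.42 and 1.04.

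Markers of other cell types moved too. For macrophages 8 of 9 markers were higher, of 8 endothelial markers 5 were higher, and of 8 smooth muscle and pericyte markers 4 were higher and 1 lower. Cardiomyocyte markers were lower for 5 of 10, with a median of -0.23. Over all genes 18.4% were higher and 20.0% lower, and 29.8% of those not dim in both groups were higher. All 5 lymphocyte markers measured were dim in both groups. The part of these cell types in the lysyl oxidase rises was not tested.

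The genes that cross-linking depends on were described by 10 lists of substrates, cofactors, processing enzymes and regulators. Of 82 genes listed, 76 were measured. In banding 54 of them were higher and 4 lower, and the other 18 missed the threshold. The median difference was 1.32. With the liver marker mean as a covariate, 21 were higher and 0 lower. Over all genes 38.4% passed, with 18.4% higher, 20.0% lower and a median of 0. The lists share their arrays with the family and follow the matrix rise already known for this series.

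Copper loading and proenzyme cleavage lie between a lysyl oxidase transcript and an active enzyme. Atp7a, the pump that loads copper onto secreted enzymes, rose 2.87-fold (log2 1.52 ± 0.18, adjusted p = 0.000465), and Atox1, the chaperone that hands copper to it, rose 1.76-fold. The importers Slc31a1 (-0.12, adjusted p = 0.287) and Slc31a2 (-0.03) did not pass, and in all 2 of 6 copper genes were higher and 0 lower. Averaged over its probe sets, Slc31a1 was lower (-0.24, adjusted p = 0.00997). Atox1 rose by 0.46 log2 units when averaged in the same way, against 0.82, and its call was lost with the liver covariate. Of 7 cleavage and activation genes, 4 were higher and 3 did not pass, 2 of these dim.

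Bmp1, the proteinase that removes the propeptide of Lox and of procollagens, rose 3.56-fold (8.4 ± 0.22 in banding, 6.57 ± 0.22 in sham; SD, n = 5 and 4; adjusted p = 8.95e-05). With its probe sets averaged, the rise of Bmp1 was 1.38 log2 units, against 1.83, and the liver covariate ended its call. Pcolce, the enhancer of Bmp1, rose 5.02-fold, while the related Pcolce2 did not pass (0.17, adjusted p = 0.203). Periostin and fibronectin, scaffolds that bring Bmp1 and Lox together, rose 25.2-fold for Postn and 16.2-fold for Fn1. Fn1 read 10.53 on sham replicate 4, against 9.15 to 9.26 on the other sham arrays, and without that array the rise was 4.35 log2 units. The same array had the highest liver marker mean, 13.63, and a link between this mean and Fn1 was not tested.

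Elastic fibre genes had the highest median of the 10 lists, 3.56, with 9 of 10 higher and 1 lower. Ltbp2, which binds fibrillin and fibulin-5, was at least 67.1-fold higher, with a log2 difference of 6.34 ± 0.25 and an adjusted p of 9.98e-06. The microfibril genes Mfap5, Mfap2 and Mfap4 rose 8.7-fold, 15.9-fold and 19.9-fold. The rise of Mfap2 was 2.04 log2 units with its probe sets averaged, against 3.99. Named after their values were seen, Eln, the elastin substrate itself, rose 20.1-fold, and Efemp1 was the 1 gene lower (-1.93 ± 0.32). The liver covariate ended the calls of both Eln and Efemp1.

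Fibrillar collagens, the main substrate in the heart, were higher for 8 of 11, and 3 were dim in both groups. Col1a2 rose 10.7-fold (3.42 ± 0.08, adjusted p = 1.58e-06), Col3a1 4.52-fold (log2 2.18, or 3.34 with its probe sets averaged), Col5a2 16.1-fold and Col11a1 at least 25.9-fold. Basement membrane collagens were higher for 4 of 6, among them Col4a1 (4.05-fold), Col4a2 (3.44-fold) and Col4a5 (3.20-fold). Col4a6 rose at least 1.34-fold, a call lost with values floored at the dim level (0.42, adjusted p = 0.163). Col4a3 (-0.08) and Col4a4 (0.03) did not pass. With the liver covariate, the calls of Col4a1, Col4a2 and Col4a6 were lost.

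Hydroxylation of lysines decides which cross-links lysyl oxidases can form. Plod2, which hydroxylates the telopeptide lysines of collagen, rose 2.78-fold (1.47 ± 0.13, adjusted p = 0.000141), Plod3 2.47-fold and Colgalt1, which glycosylates hydroxylysine, 1.86-fold. P3h4, a partner of lysyl hydroxylase 1, was the 1 gene of the list that was lower, 1.41-fold, and Colgalt2 did not pass (0.24). With the liver covariate, 0 genes of this list passed. All 10 genes of prolyl hydroxylation and folding were higher, or 3 with the liver covariate, with Crtap at 2.45-fold, P3h2 at 5.31-fold, P3h3 at 4.28-fold and Serpinh1, the collagen chaperone, at 3.13-fold.

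Other oxidases and cross-linkers moved in both directions. Aoc3, a copper amine oxidase of vessel walls and fat, rose 3.26-fold (1.71 ± 0.18, adjusted p = 0.000292). Pxdn, which forms sulfilimine bonds in collagen IV, rose 3.27-fold and the transglutaminase Tgm2 2.52-fold. F13a1, the clotting transglutaminase subunit that macrophages also make, was 2.05-fold lower (-1.04 ± 0.17, adjusted p = 0.00222). The liver covariate ended the calls of Aoc3, Pxdn, Tgm2 and F13a1.

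Among 14 known regulators of the family, 10 passed upwards, 1 passed downwards and 3 missed the threshold. With the liver covariate 1 passed upwards and 0 downwards. Tgfb3 rose 7.38-fold, Hif1a, the hypoxia factor that induces Lox in cultured cells, 2.59-fold, Snai2 3.32-fold and Wwtr1 1.79-fold. The rise of Hif1a was 0.88 log2 units with its probe sets averaged, against 1.38. Yap1 (0.16, adjusted p = 0.108) and Mrtfb (-0.12, adjusted p = 0.454) did not pass. The lower one, named after its values were seen, was Epas1 (-0.42, adjusted p = 0.0475). Its call was lost without banding replicate 2 or 4 and without any 1 of the sham replicates (-0.38 to -0.47, adjusted p 0.056 to 0.114).

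**Figure D4:**
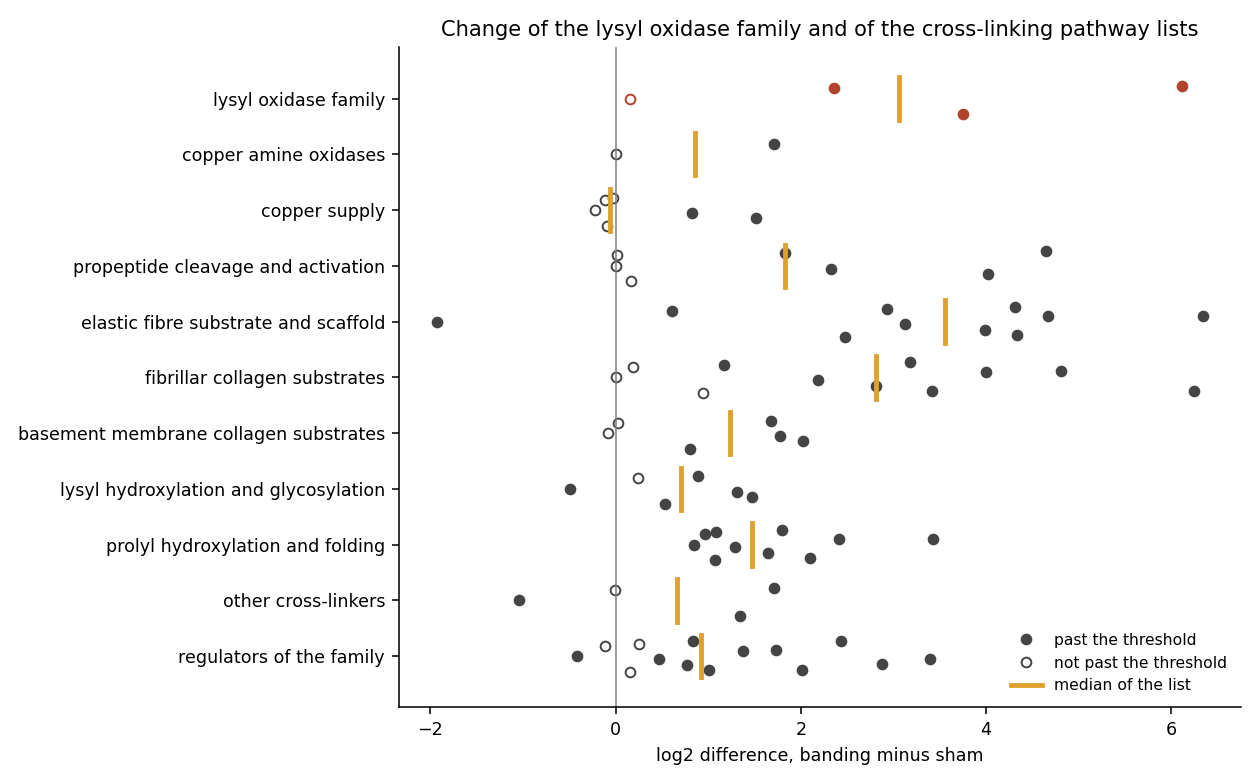
Log2 difference, banding minus sham, of each measured gene (points) in the lysyl oxidase family (top) and in 10 lists of the cross-linking pathway; filled points passed an adjusted p of 0.05, open points did not, and bars are list medians. Lox, at 6.11, is matched in size only by Ltbp2 at 6.34 and Col11a1 at 6.24, both of which were dim in sham.

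Over the 9 arrays, the genes with values most like those of Lox were Aspn, a small leucine-rich proteoglycan of collagen fibrils (Pearson r = 0.999), Cthrc1 (0.999), C1qtnf3 (0.999), Pcolce (0.998) and Zc3hav1l (0.997), among 11012 genes compared. For Loxl3 they were Ddah1 (0.998), Srpx2 (0.998), Pcolce (0.998), Fbln2 (0.997) and Tceal9 (0.997). For Loxl1 they were Nav1 (0.996), Clptm1l (0.996), Prkar1a (0.996), Col5a1 (0.995) and Col6a2 (0.994). Pcolce appears for both Lox and Loxl3, and the procollagen gene Col5a1 for Loxl1. An r above 0.99 was reached by 129 genes for Lox, 96 for Loxl3 and 37 for Loxl1, and this measure includes the gap between the groups.

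On deviations from the group means, which leave that gap out, the nearest genes to Lox were Pcgf6 (r = 0.962), Ro60 (0.952) and Ddah1 (0.947). To Loxl3 they were Actn4 (0.968), Srpx2 (0.962) and Snrpe (0.960). To Loxl1 they were Poglut2 (0.970), Sec31a (0.967) and Fhod1 (0.962). Ddah1, which degrades an inhibitor of nitric oxide synthase, was near Lox on this measure and near Loxl3 over all 9 arrays, and it rose by 3.68 ± 0.28 log2 units (adjusted p = 7.89e-05). Srpx2 was near Loxl3 on both measures and rose by 3.57 ± 0.29.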

How the data were processed

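The authors deposited log2 expression values per probe set for 9 one-colour Affymetrix arrays of total RNA. RMA and GCRMA are listed, with nothing on how each was used, per the submitters' processing notes. Values ran from 2.198 to 16.43, which sets the log2 scale, and any centring is unknown. Probe names came from the platform table.

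The 64 control probe sets were left out. Of the rest, 34945 named 1 gene, and 1 was kept for each of 18193 genes, the brightest on average across both groups. The 5 banding and 4 sham arrays entered lmFit and eBayes of limma 3.58.1 (R 4.3.3, two-sided, Benjamini-Hochberg), on all genes and, separately, on all 45037 probe sets. The fit was checked on simulated data. Within-array differences used exact permutation tests in scipy 1.17.1. Same-numbered banding and sham arrays did not deviate together (r of -0.029 to 0.036), so no block was used.

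Members and gene lists were chosen with earlier results of these data known. The rule for named genes took up to 4 passing genes of each list by p, up to 2 not passing by mean level, and the genes most correlated with each member; genes dim in both groups are not described. Of 176 listed genes, 164 were analysed here. Alternatives are given in the closing section.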

Additional observations from a re-analysis of the deposited data

Results flagged for a closer look

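Single arrays lay far from the rest of their group in 10 of 144 group values examined, where chance gives about 5%. In the family, 1421153_at of Loxl4 read 3.67 on banding replicate 5, against 2.98 on the other banding arrays, and 2.91 on sham replicate 3, against 2.98 on the other sham arrays. The third Lox probe set, 1437903_at, read 3.09 on banding replicate 5, against 2.21 to 2.38, and 2.2 on sham replicate 2, against 2.21. All 4 of these values are dim. Among other genes, Aoc3 read 7.85 on banding replicate 5, against 8.45 to 8.63, and 7.05 on sham replicate 4, against 6.51 to 6.57. Fn1 read 10.53 on sham replicate 4, against 9.15 to 9.26. C1qtnf3 on sham replicate 4 and Col11a1 on sham replicate 2 each read 2.2, the floor, against 2.78 and 2.79 to 2.83 on the other sham arrays. Col4a3 read 5.28 on sham replicate 3, against 5.27.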

How the results depend on the processing

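Over 19 alternatives, Lox stayed past the threshold in all, with differences of 4.33 to 6.55 log2 units (adjusted p 3.26e-07 to 0.0257), and Loxl1 and Loxl3 in all but the liver covariate. That covariate left 1 of 4 family genes and 1 of 8 family probe sets past the threshold, with Loxl1 at 1.68 and Loxl3 at 3.75. It also left 21 pathway genes higher and 0 lower, and it took all genes past the threshold to 998, against 6989. Leaving out 1 array at a time gave 6.01 to 6.28 for Lox, 3.65 to 3.91 for Loxl3, 2.28 to 2.44 for Loxl1 and 0.02 to 0.19 for Loxl4, with 54 pathway genes higher and 3 to 4 lower. The 6 member pairs all sit at the smallest permutation p possible, which says nothing about stability. With probe sets averaged, the dim 1437903_at of Lox among them, Lox minus Loxl3 differed by 0.58 between groups, against 2.36. With the replicate number as a block, Lox gave 6.02, Loxl1 2.39 and Loxl3 3.65, all still past the threshold. The block ended the calls of Tgm2 (1.18, adjusted p = 0.0527), Col4a6 (0.89, adjusted p = 0.0644) and Poglut2 (0.49, adjusted p = 0.0872). Relative to 5 activated fibroblast markers, of which Cthrc1 and Tnc were dim in sham, Loxl1 (-2.42) and Loxl3 (-1.03) reversed. Without those 2 markers, an alternative chosen after seeing the data, Loxl1 gave -0.2 and Loxl3 1.19. Leaving out 1 array at a time, Col4a3 ran from -0.24 to 0.02, Col4a4 from -0.08 to 0.16 and Slc31a2 from -0.1 to 0.04. Genes that had not passed changed sign near 0. These were Slc31a2 with probe sets averaged (0.02) and without banding replicate 2 (0.04) or sham replicate 1 (0.03), Col4a3 with the block, without banding replicate 5 and without the arrays with most liver transcripts (0.02 each), and Col4a4 without banding replicate 1 (-0.08), sham replicate 2 (-0.04) or sham replicate 4 (-0.02). With the liver covariate, Col4a4 (-1.15), Colgalt2 (-1.05), Fhod1 (-0.68), Poglut2 (-0.28), Sec31a (-0.15) and Slc31a1 (0.03) changed sign. Among other named genes, that covariate ended the calls of Actn4, Aoc3, Atox1, Bmp1, Clptm1l, Col4a1, Col4a2, Col4a6, Colgalt1, Ddah1, Efemp1, Eln, Epas1, F13a1, Fbln2, Hif1a, Nav1, P3h3, P3h4, Plod2, Plod3, Prkar1a, Pxdn, Ro60, Serpinh1, Snai2, Snrpe, Srpx2, Tgm2 and Wwtr1. The call of Epas1 was also lost with values floored (adjusted p = 0.0518), with the block (-0.32, adjusted p = 0.131) and without the arrays with most liver transcripts (-0.31). The call of Poglut2 (0.45, adjusted p = 0.0259) was also lost without banding replicate 1 or 3 and without sham replicate 1, 2 or 4 (0.38 to 0.46), and without the arrays with most liver transcripts (0.42). The cause of these changes was not tested. Dim signals limit what can be said of Loxl4 and of 1437903_at.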
